A study of Homo sapiens with 14 samples.

Results

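The 8 cadherin genes CDH1, CDH2, CDH3, CDH4, CDH5, CDH6, CDH11 and CDH13 were examined for binding of GATA3, a zinc-finger factor that binds GATA motifs and specifies luminal cells of the mammary gland. A region was a merged set of overlapping peaks from 12 deposited peak lists, and it was assigned to a cadherin when it overlapped the gene's hg38 span or the 50 kb on either side. This rule found 74 regions of 78999 in all, each counted once. The rule uses position only. The genes were proposed with earlier results of these data known.

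The lists came from chromatin immunoprecipitation followed by sequencing (ChIP-seq) with an antibody against GATA3 in the established human line MDA-MB-231, which derives from a triple-negative breast cancer. The 6 groups were cells with A442M-FLAG, G444E-FLAG, WT-FLAG, A442M, G444E and WT GATA3, with 2 libraries each. A442M and G444E are point mutants of GATA3, WT is the wildtype protein, and FLAG is a short peptide tag at the C-terminal end that, per the design text, keeps GATA3 protein levels stable in mutant and wildtype alike. All cells were untreated and were harvested on day 3. How GATA3 was introduced, which promoter drove it and whether each line was 1 clone were not given in the sources used here, and samples with an empty vector were not analysed here. Replicates are not described as separate cultures, and p-values therefore reflect only how far these samples vary, which may be technical.

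Classical cadherins are calcium-dependent adhesion molecules that pair with the same cadherin on a neighbouring cell. Their cytoplasmic tails bind p120-catenin and beta-catenin, and alpha-catenin links beta-catenin to actin. CDH1 (E-cadherin), CDH2 (N-cadherin), CDH3 (P-cadherin) and CDH4 (R-cadherin) are type I cadherins, CDH6 (K-cadherin) and CDH11 (OB-cadherin) are type II, and CDH5 (VE-cadherin) is a divergent member of endothelial junctions. CDH13 (T-cadherin) is usually grouped with them by its extracellular repeats, but it is anchored in the membrane by a lipid and has no tail for catenins. Loss of CDH1 with gain of CDH2 is a known hallmark of the epithelial-to-mesenchymal transition, and GATA3 is known for its part in luminal differentiation. Peak lists report where GATA3 was called and not RNA, so neither the expression of the cadherins nor markers of the cell line could be checked.

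Promoter sequences from RefSeq (GRCh38.p14, coordinates those of hg38) matched 2 of the 8 genes, CDH2 and CDH4, with 2 start sites each. None of the 74 regions overlapped a promoter window of 250 bases before to 50 after a start site. Of the 35116 promoters with a sequence, 12.4% overlapped a region. Only 4 of these promoters belong to the 8 genes, too few to compare with that share. Start sites of the genes that were not matched could not be checked. The 250 bases before both CDH2 start sites, on the minus strand at chr18:28177131-28177380 and chr18:28036642-28036891, are shown because CDH2 had the most regions of the 8 genes. They were chosen after the values were seen.
CDH2 upstream window: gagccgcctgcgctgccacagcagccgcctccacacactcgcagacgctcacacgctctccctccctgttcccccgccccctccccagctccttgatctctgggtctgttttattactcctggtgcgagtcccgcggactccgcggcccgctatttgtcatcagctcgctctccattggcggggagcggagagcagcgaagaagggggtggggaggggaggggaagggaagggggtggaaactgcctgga
CDH2 internal window: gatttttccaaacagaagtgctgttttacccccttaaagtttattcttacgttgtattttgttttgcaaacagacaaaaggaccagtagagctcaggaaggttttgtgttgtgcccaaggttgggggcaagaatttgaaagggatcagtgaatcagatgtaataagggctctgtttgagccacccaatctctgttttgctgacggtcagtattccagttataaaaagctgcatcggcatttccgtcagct
Neither CDH2 window, with its 50 bases after the start, held the GATA motif AGATAA, nor the motif AGATAG, nor the motif TGATAA, nor the motif TGATAG, on either strand, so no letter is in capitals. Of all promoters of the same length, 24.97% held at least 1 of these motifs, which can overlap and were counted once per promoter. The region nearest to the first window lay 5.85 kb away at chr18:28183227-28184165 and was called in 12 libraries. The one nearest to the internal window lay 3.95 kb away and was called in 1 library.

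Lists held between 25248 and 51694 peaks, and between 0.0918% and 0.129% of a library's regions were at the 8 cadherins. Lists were longer in FLAG libraries, at 30026 to 51694 peaks, than in untagged libraries, at 25248 to 39700 peaks, so a count of regions moves with the length of the list. No read counts came with the lists, depth is unknown, and a region that was not called is not shown to be unbound. Of the 74 regions, 13 (17.6%) had a call in each of the 12 libraries, against 13.8% of all regions. Another 18 (24.3%) were called in 1 library only, against 23.5% of all regions. Both shares are near those of the series. The 13 shared regions had a median width of 1050 bp and the 18 single-library regions 228 bp. A region's width covers all its merged peaks, so regions called in more libraries tend to be wider by construction. Of the 74 regions, 57 lay within a gene span.

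**Figure D1:**
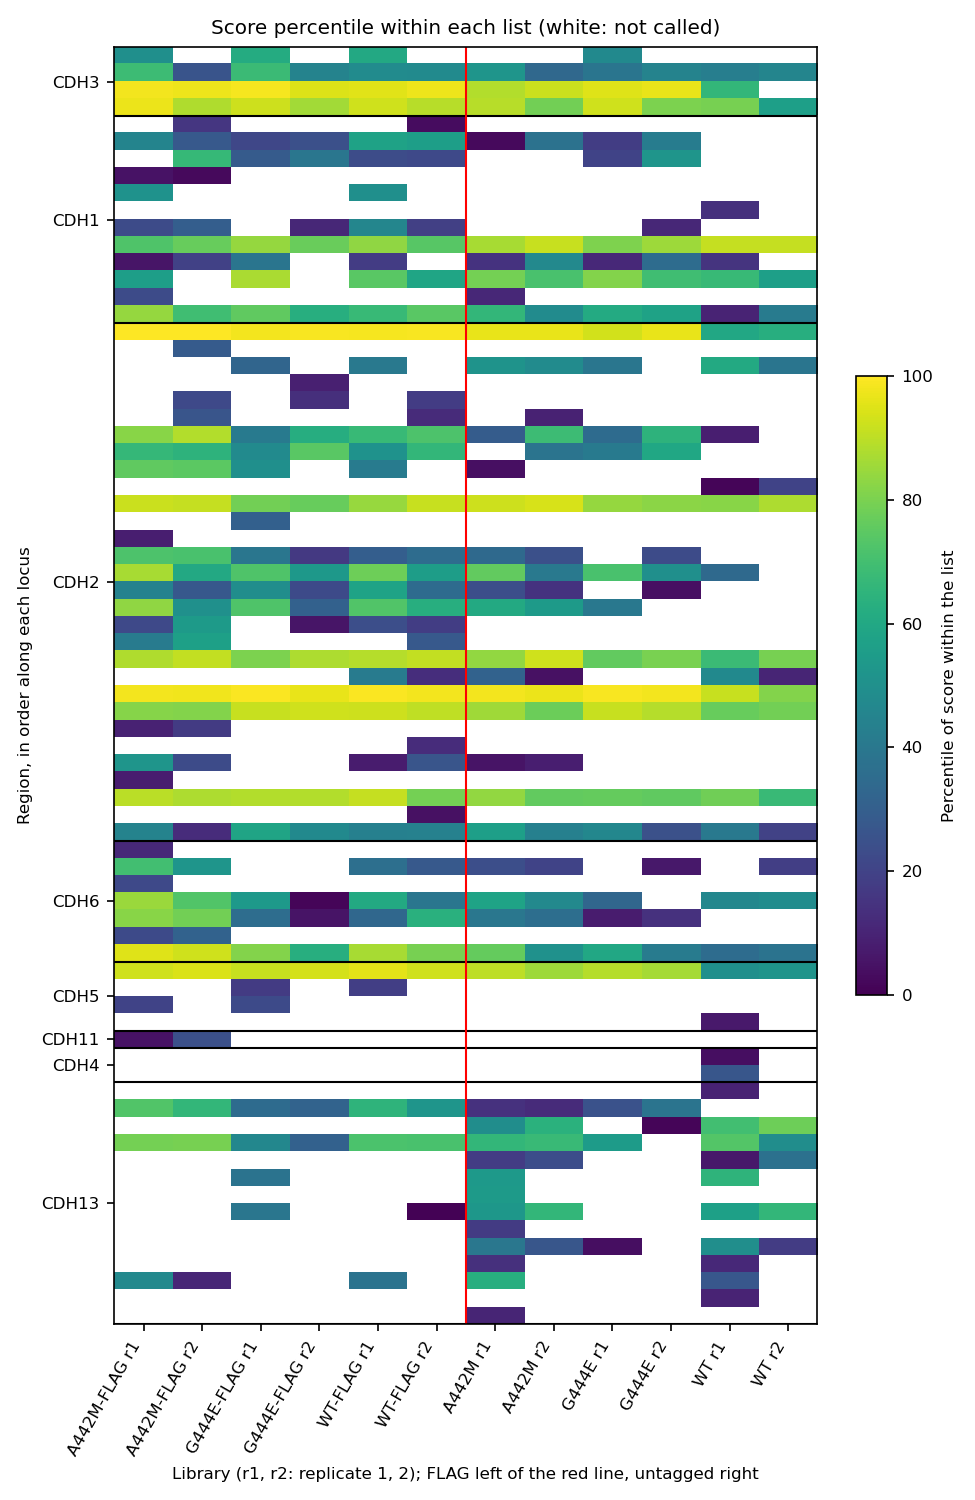
Each row is 1 of the 74 regions in order along its locus, each column 1 library, and the colour is the percentile of the region's score within that library's list, with white for no call. Rows coloured across all 12 columns are the 13 shared regions, and the lower CDH13 rows are coloured mostly to the right of the red line, in untagged libraries.

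CDH2, the N-cadherin of mesenchymal and neural cells, had the most regions. Its span at chr18:27932879-28177130 and flanks held 30 regions, 23 of them in the span, or 87.1 per Mb, more than 93.4% of protein-coding genes. The median protein-coding gene had 30.6 per Mb. The number called was 20 and 21 in A442M-FLAG, 16 and 16 in G444E-FLAG, 18 and 21 in WT-FLAG, 16 and 17 in A442M, 12 and 12 in G444E, and 12 and 10 in WT. Every FLAG library had more than the untagged library of its genotype and replicate number, in 6 of 6 pairs. The ranges of 16 to 21 and 10 to 17 overlap, however, and the FLAG list was the longer in each pair. Per 10000 regions of a library, CDH2 was higher in the FLAG library in 4 of 6 pairs and lower in 2.

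Of the CDH2 regions, 7 had a call in every one of the 12 libraries. They lay at chr18:27903321-27904808, chr18:28009504-28010817, chr18:28111632-28113524, chr18:28127619-28128917, chr18:28135656-28136532, chr18:28183227-28184165 and chr18:28203495-28204544. The first is in the flank below the gene, which on the minus strand is beyond its 3′ end. The sixth and seventh are upstream of the gene. The other 4 are inside the span, where exons and introns were not assigned.

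Scores were compared only as percentiles within each library's own list, where a high value marks a peak that outscores most of the list. Lists of different lengths give ranks that show no change between groups, so these percentiles are descriptions. The region at chr18:28127619-28128917 was high throughout, at 98.4 and 98.0 in A442M-FLAG, 99.3 and 96.7 in G444E-FLAG, 99.4 and 98.2 in WT-FLAG, 98.2 and 97.1 in A442M, 98.8 and 98.3 in G444E, and 91.5 and 81.4 in WT. The flank region at chr18:27903321-27904808 was at 93.1 or above in the 10 libraries outside untagged WT, against 59.9 and 62.8 in WT. The most upstream region, at chr18:28203495-28204544, was called everywhere but stayed between 12.5 and 58.4.

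The CDH2 regions that varied were mostly those called in more FLAG libraries. Of the 30 regions, 20 were called in more FLAG than untagged libraries and 3 in more untagged than FLAG libraries, while 11 were called in no untagged library and 1 in no FLAG library. Over all regions these shares were 56.7% with more FLAG calls, 21.6% with more untagged calls, 30.2% without an untagged call and 12.2% without a FLAG call. The densest stretch, chosen after the values were seen, held 6 regions within 25 kb in the middle of the span. Over these 6 regions there were 32 of 36 possible calls in FLAG libraries and 14 of 36 in untagged libraries. FLAG lists were longer, and the like share of calls over all regions was not computed, so these counts are descriptions. At chr18:28075447-28076134 the percentile was 83.5 and 50.3 in A442M-FLAG, 72.6 and 31.0 in G444E-FLAG, 73.0 and 62.7 in WT-FLAG, 60.8 and 54.4 in A442M, and 40.1 in G444E replicate 1, with no call in G444E replicate 2 or in WT. At chr18:28078741-28079260 a peak was called in 5 FLAG libraries, all but G444E-FLAG replicate 1, and in 0 of 6 untagged libraries.

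**Figure D2:**
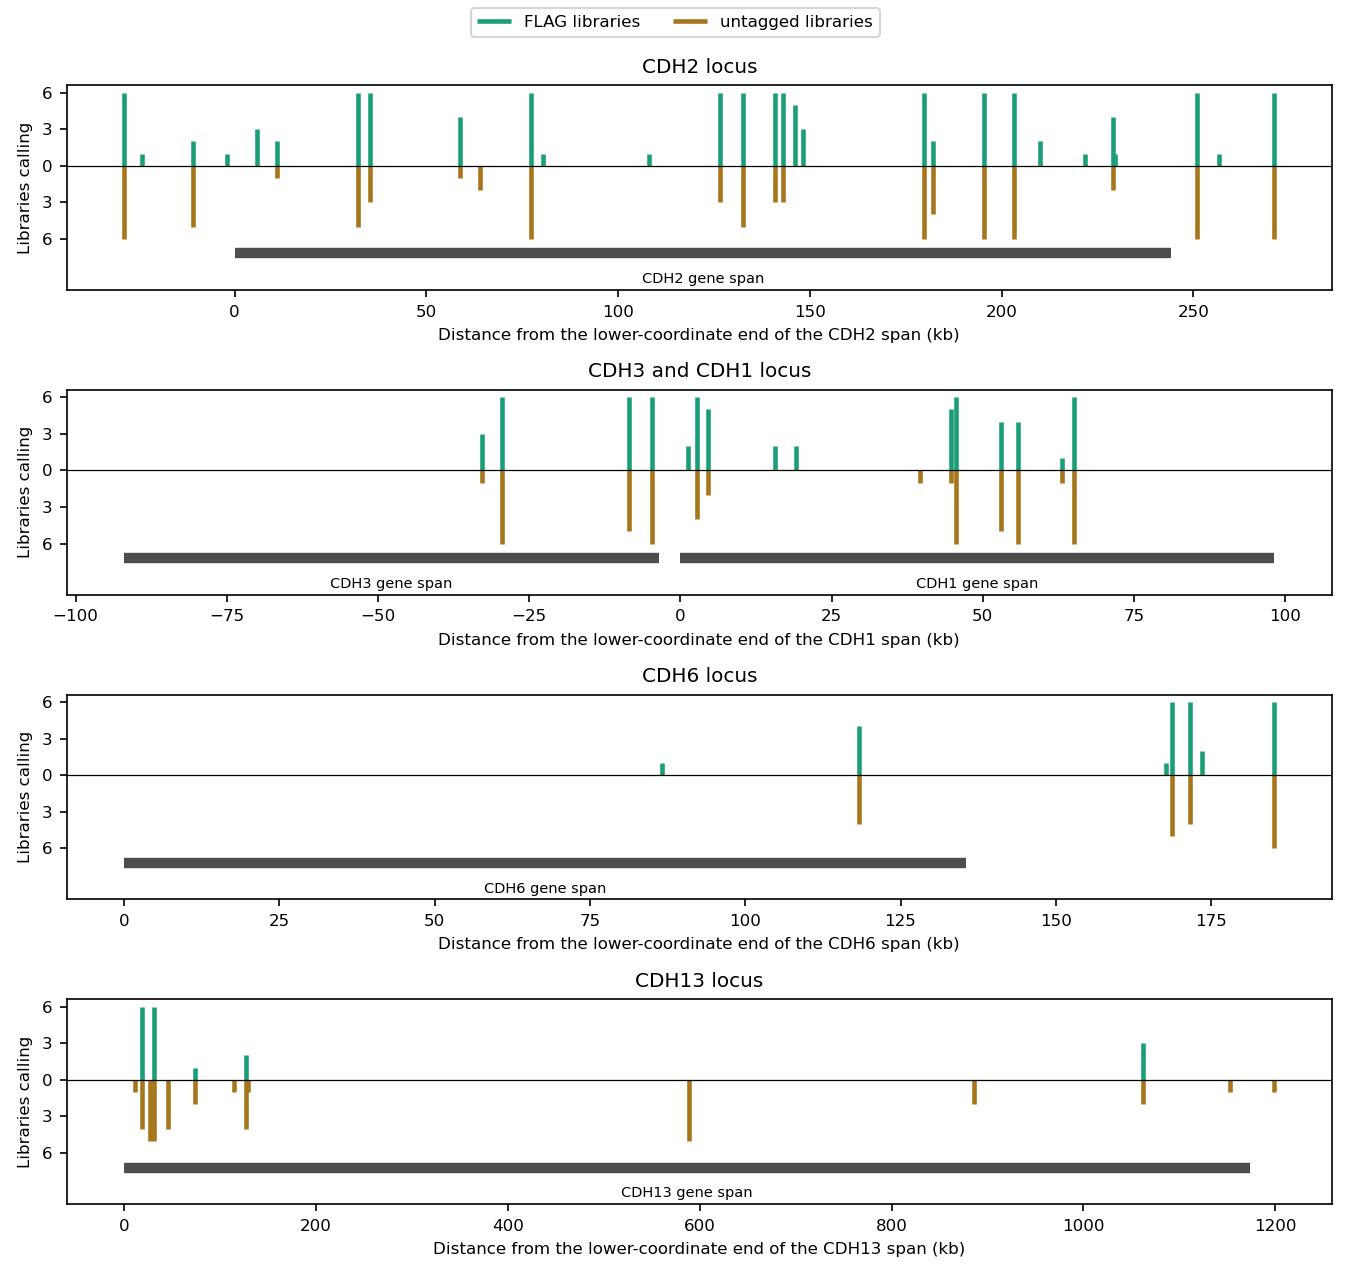
Bars stand at the centre of each region, by distance in kb from the lower-coordinate end of a gene span. Their height above the line is the number of FLAG libraries with a call (0 to 6) and below the line the number of untagged libraries, with gene spans as grey bars. CDH2 regions reach upward more often than downward, and of the 14 CDH13 regions 11 reach further down.

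CDH1 and CDH3 lie 3.52 kb apart and share most of their surroundings. CDH1 encodes E-cadherin of epithelial junctions and CDH3 encodes P-cadherin of basal epithelial cells. The CDH1 span at chr16:68737292-68835537 with its flanks held 16 regions (80.7 per Mb) and the CDH3 span at chr16:68645310-68733771 with its flanks held 12 (63.7 per Mb). All 12 of the CDH3 regions were also among the 16 of CDH1, so the genes are not independent. Of the 16 regions, 12 lay in the CDH1 span and 4 in the CDH3 span.

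Over the CDH1 window the number called was 13 and 11 in A442M-FLAG, 10 and 8 in G444E-FLAG, 12 and 10 in WT-FLAG, 9 and 8 in A442M, 10 and 10 in G444E, and 8 and 5 in WT. The untagged WT libraries were the lowest, although WT replicate 1 equalled A442M replicate 2 and G444E-FLAG replicate 2. Over the CDH3 window the number was 9 and 9 in A442M-FLAG, 7 and 7 in G444E-FLAG, 9 and 8 in WT-FLAG, 5 and 5 in A442M, 7 and 7 in G444E, and 5 and 3 in WT. FLAG libraries, at 7 to 9, and untagged libraries, at 3 to 7, met at 7.

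Regions called in all 12 libraries lay at chr16:68707382-68708204 and chr16:68732092-68733248 in CDH3 and at chr16:68782581-68783135 and chr16:68802175-68802615 in CDH1. The CDH3 region at chr16:68732092-68733248, near the upper end of the gene, had percentiles of 97.0 and 88.3 in A442M-FLAG, 92.2 and 86.1 in G444E-FLAG, 92.7 and 89.2 in WT-FLAG, 89.4 and 78.9 in A442M, 92.6 and 80.2 in G444E, and 79.6 and 56.5 in WT. The neighbouring CDH3 region at chr16:68728437-68729114 had the highest median percentile of the locus, 95.7, and was called in 11 libraries, all but WT replicate 2. It was chosen after its values were seen.

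Inside CDH1 the shared region at chr16:68782581-68783135 ran the other way, with 72.6 and 76.7 in A442M-FLAG, 84.3 and 77.0 in G444E-FLAG, 83.2 and 74.2 in WT-FLAG, 86.7 and 91.6 in A442M, 80.6 and 85.2 in G444E, and 91.3 and 91.4 in WT. The shared region at chr16:68802175-68802615 was at 48.2 or above outside untagged WT, against 10.1 and 41.6 in WT. Close to the lower end of CDH1, at chr16:68739762-68740482, a region 2.83 kb into the span was called in 10 libraries and in neither WT library. It and the next region, at chr16:68741672-68742150, were called in both G444E libraries, whereas in A442M the first was called in both libraries and the second in neither.

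**Figure D3:**
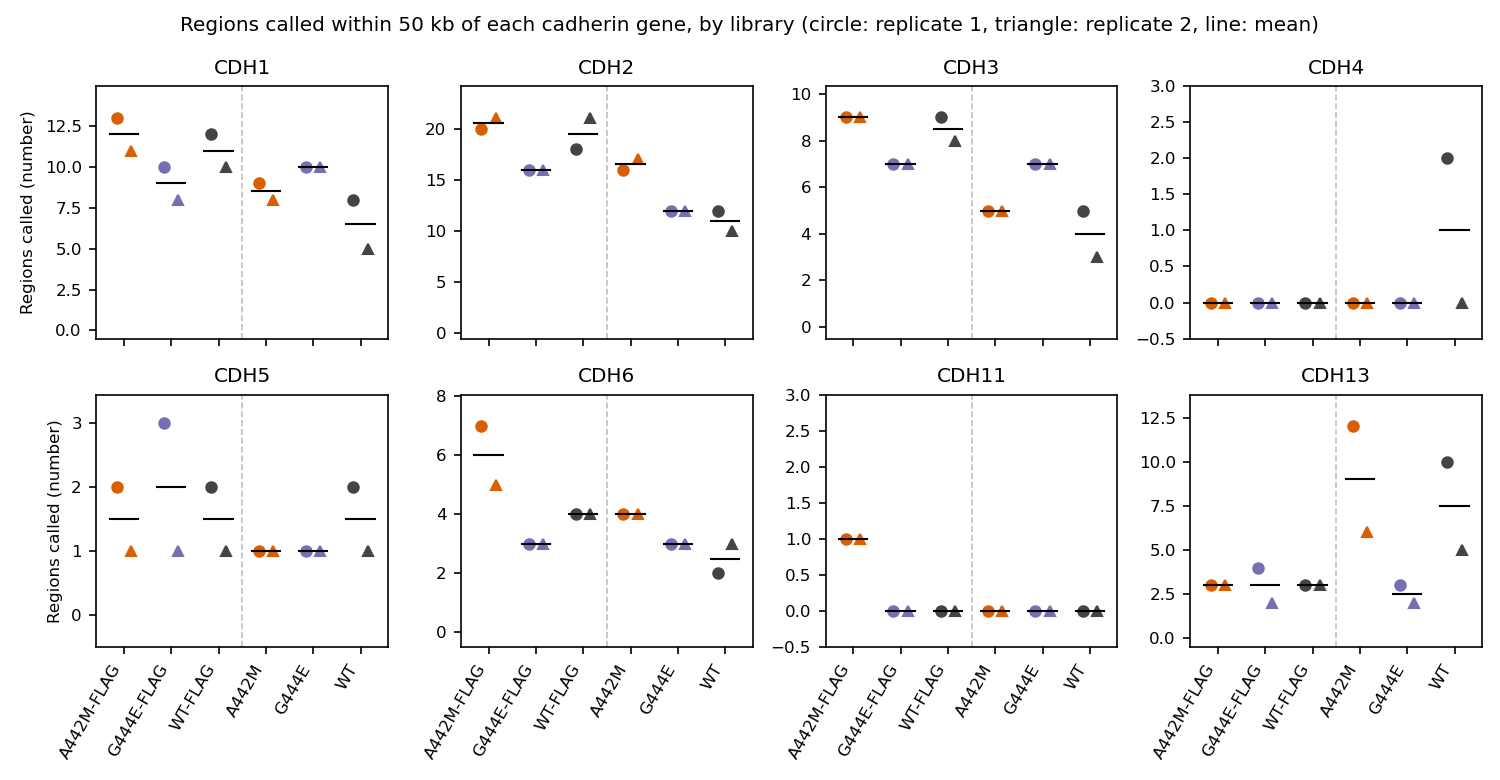
Each panel is 1 gene, the vertical axis is the number of regions called within 50 kb of the gene, and groups run from A442M-FLAG, G444E-FLAG and WT-FLAG left of the dashed line to A442M, G444E and WT right of it. Circles are replicate 1, triangles replicate 2 and lines the mean of both. CDH2 sits at 16 to 21 in FLAG libraries and 10 to 17 in untagged libraries, and CDH13 at 2 to 4 in FLAG libraries with 12 in A442M replicate 1 and 10 in WT replicate 1.

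CDH13, the lipid-anchored T-cadherin, had the opposite pattern of calls. Its span at chr16:82626969-83800640, the longest of the 8, held 13 regions and its upper flank 1, or 11.0 per Mb, more than 23.6% of genes. The number called was 3 and 3 in A442M-FLAG, 4 and 2 in G444E-FLAG, 3 and 3 in WT-FLAG, 12 and 6 in A442M, 3 and 2 in G444E, and 10 and 5 in WT. The untagged A442M and WT libraries were all above every FLAG library, and the G444E libraries were within the range of the FLAG libraries.

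Of the 14 CDH13 regions, 11 were called in more untagged than FLAG libraries and 3 in more FLAG than untagged libraries. There were 9 without a FLAG call. Over the series these shares were 21.6%, 56.7% and 12.2% of regions. Of the 9, 5 were called in 1 library only, either A442M replicate 1 or WT replicate 1. Another was called in both of these and in no other library. The counts therefore rest largely on these libraries. The first 9 regions lay below the widest gap, of 459 kb, and of the other 5, 4 were scattered over the rest of the gene and 1 was in the flank above it. No CDH13 region was called in all 12 libraries. The closest was chr16:82657250-82658260, called in all but G444E replicate 2, with percentiles of 78.9 and 79.5 in A442M-FLAG, 46.3 and 31.2 in G444E-FLAG, 71.5 and 71.4 in WT-FLAG, 66.2 and 67.6 in A442M, 55.0 in G444E replicate 1, and 73.1 and 49.2 in WT. It was named after its values were seen.

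Its lower neighbour, chr16:82653651-82654240, was called in 0 of 6 FLAG libraries and in 5 of 6 untagged libraries, at percentiles of 49.0 and 63.9 in A442M, 1.17 in G444E replicate 2, and 69.7 and 78.0 in WT. Further along, chr16:83215518-83215913 was called in 0 FLAG libraries and in 5 untagged libraries, at 39.5 and 26.6 in A442M, 3.70 in G444E replicate 1, and 49.3 and 17.6 in WT. The region at chr16:82672568-82673028 was called in both A442M and both WT libraries and in no other. In these 3 regions the calls came from the untagged A442M and WT libraries first, with at most 1 G444E library each.

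The region at chr16:82645379-82646119 went the other way within CDH13. It was called in 6 FLAG libraries, both A442M libraries and both G444E libraries, and in neither WT library. Its percentile was 72.7 and 66.1 in A442M-FLAG, 34.9 and 31.6 in G444E-FLAG, 65.1 and 52.3 in WT-FLAG, 14.1 and 12.2 in A442M, and 25.1 and 38.3 in G444E.

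CDH6, a type II cadherin of kidney epithelium and neural crest, had 7 regions, 2 in its span at chr5:31193686-31329146 and 5 above it (29.7 per Mb). The number called was 7 and 5 in A442M-FLAG, 3 and 3 in G444E-FLAG, 4 and 4 in WT-FLAG, 4 and 4 in A442M, 3 and 3 in G444E, and 2 and 3 in WT. A442M-FLAG was the only group whose libraries both exceeded 4. The shared region, chr5:31378362-31379412, is outside the span, near the far edge of the upper flank, and is not counted with a 10 kb flank. It had percentiles of 95.1 and 92.9 in A442M-FLAG, 81.3 and 62.6 in G444E-FLAG, 87.0 and 79.5 in WT-FLAG, 76.5 and 50.5 in A442M, 60.1 and 41.6 in G444E, and 35.3 and 38.2 in WT.

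CDH5, the VE-cadherin of endothelial adherens junctions, had 4 regions (29.0 per Mb), 1 of them within its span at chr16:66366691-66404784. That region, chr16:66387004-66387870, was called in all 12 libraries, with percentiles of 92.6 and 94.2 in A442M-FLAG, 91.6 and 93.4 in G444E-FLAG, 96.0 and 92.8 in WT-FLAG, 90.1 and 85.2 in A442M, 88.8 and 86.5 in G444E, and 49.7 and 51.6 in WT. The other 3 lay above the gene and each was called in 1 or 2 libraries. CDH5 counts were therefore 1 to 3 in every library.

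CDH11 and CDH4 were nearly empty. CDH11, a type II cadherin of mesenchymal and bone-forming cells, had 1 region (3.57 per Mb), at chr16:65002342-65002586 within its span. It was called in both A442M-FLAG libraries, at percentiles of 4.74 and 24.6, and in no other library. CDH4, the R-cadherin of retina and nervous system, had 2 regions (2.54 per Mb), both called in WT replicate 1 only, at percentiles of 3.64 and 26.6. CDH4 and CDH11 had more regions per Mb than 11.96% and 12.3% of genes.

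Of the 8 genes, 5 had at least 1 region called in all 12 libraries, as did 40.5% of 20052 protein-coding genes. The 13 shared cadherin regions had a median percentile of 85.8, against 79.2 for the shared regions of the whole series. At 5 of the 13 (2 at CDH2 and 1 each at CDH1, CDH5 and CDH6) both untagged WT libraries were below the other 10, which was also so at 24.9% of the 10933 shared regions of the series. The WT lists, with 28890 and 25248 peaks, are among the 3 shortest, and the part of list length in these ranks was not tested.

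The tag comparison set 6 FLAG libraries against 6 untagged libraries. Over regions, Fisher's exact test on calls (two-sided, Benjamini-Hochberg adjusted over the 11777 regions with enough calls to reach p = 0.05 at all) left 0% of regions past an adjusted 0.05, at cadherins and in the series. Among the 11 cadherin regions that could be tested, 1 had an unadjusted p under 0.05 with more calls in FLAG libraries, where the series had 11.3%, and 2 with fewer, where the series had 1.63%. The first is the CDH2 region at chr18:28078741-28079260 and the other 2 are the CDH13 regions at chr16:82653651-82654240 and chr16:83215518-83215913. Each had an exact p of 0.0152 and an adjusted p of 0.117.

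Over genes, the number of called regions was compared by an exact permutation test, two-sided, with tag labels exchanged within genotype and p-values adjusted by Benjamini-Hochberg over the 17718 protein-coding genes with a region. No gene passed, so the share past an adjusted 0.05 was 0%. The 216 arrangements of this permutation test give no p below 0.00926. A gene can therefore pass only if a large share of all genes have a p near that value. The 0% says little about any 1 gene. At an unadjusted p under 0.05, 19.1% of genes had more regions in FLAG libraries and 0.593% fewer, and the median difference over all genes was 0.667 regions. CDH2 averaged 18.7 ± 2.34 regions in FLAG libraries and 13.2 ± 2.71 in untagged libraries (SD, n = 6 each), a difference of 5.50 with an exact p of 0.00926, the smallest that the 216 arrangements can give, and an adjusted p of 0.174. It was the 1 cadherin under 0.05.

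CDH13 averaged 3.00 ± 0.632 regions in FLAG libraries and 6.33 ± 3.93 in untagged libraries (SD, n = 6 each), a difference of -3.33 with an exact p of 0.0648 and an adjusted p of 0.242. Without A442M replicate 2 the difference was -5.00, with a score of at least 10 it was -1.5, and with lists cut to the length of the shortest it was -1.83. CDH3 averaged 8.17 ± 0.983 regions in FLAG libraries and 5.33 ± 1.51 in untagged libraries, and CDH6 averaged 4.33 ± 1.51 and 3.17 ± 0.753, each with an exact p of 0.0556 and an adjusted p of 0.218 (SD, n = 6 each). With equal list lengths the CDH3 difference of 2.83 became 0.333 and the CDH6 difference of 1.17 became 0. CDH1 averaged 10.7 ± 1.75 in FLAG libraries and 8.33 ± 1.86 in untagged libraries, with an exact p of 0.111 (SD, n = 6 each). All 12 CDH3 regions are also counted for CDH1, and 8 of them lie above the CDH3 span, inside CDH1. The CDH1 and CDH3 differences are therefore not independent. CDH5, CDH11 and CDH4 differed by 0.5, 0.333 and -0.333 regions, with exact p-values of 0.5, 0.333 and 1 over 6 and 6 libraries.

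Since FLAG lists were longer, the same numbers were also taken per 10000 regions of each library. On that scale 10.5% of genes had more regions in FLAG libraries at an unadjusted p under 0.05 and 7.48% fewer. CDH2 averaged 4.75 ± 0.736 per 10000 regions in FLAG libraries and 4.31 ± 0.325 in untagged libraries, with an exact permutation p of 0.269 (SD, n = 6 each). CDH13 averaged 0.758 ± 0.150 per 10000 regions in FLAG libraries and 2.03 ± 1.13 in untagged libraries, with an exact p of 0.0278 and an adjusted p of 0.203 (SD, n = 6 each). CDH13 was lower in the FLAG library in 5 of 6 pairs of the same genotype and number. The CDH1 difference turned to -0.0922 per 10000 regions, so its direction depends on this scaling.

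The genotype comparison set 8 mutant libraries against 4 wildtype libraries. Fisher's exact test left 0% of the 26654 testable regions past an adjusted 0.05, and of the 19 testable cadherin regions 0 had an unadjusted p under 0.05, where the series had 0.206% with more calls in mutants and 0.105% with fewer. For region numbers per gene, by exact permutation of genotype within tag state, 0% of genes passed, the adjusted p was 1 for each of the 8 cadherins, and 0 of the 8 had an unadjusted p under 0.05, where 2.06% of all genes did with more regions in mutants and 0.220% with fewer. The smallest permutation p over all genes here was 0.00444, the lowest that the 225 arrangements can give. A gene can pass only if many genes share such a p, so the 0% says little about any 1 gene. CDH1 averaged 9.88 ± 1.64 regions in mutants (n = 8) and 8.75 ± 2.99 in wildtype (n = 4), with an exact p of 0.418. CDH2 averaged 16.25 ± 3.24 in mutants (n = 8) and 15.25 ± 5.12 in wildtype (n = 4), with an exact p of 0.569. CDH13 averaged 4.38 ± 3.34 in mutants (n = 8) and 5.25 ± 3.30 in wildtype (n = 4), with an exact p of 0.733, and its difference of -0.875 became 0.375 without WT replicate 1.

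Pairs of groups have 2 libraries each and were described by the regions that both libraries of a group called and neither of the other group did, as a share of regions called in any of the 4. The 7 pairs share groups with each other, the WT libraries above all. For A442M against WT, 7 of 51 cadherin regions (13.7%) were called in A442M only, against 11.0% of all regions, and 1 (1.96%) in WT only, against 1.08%. The regions with the highest percentiles on the A442M side were chr18:28075447-28076134 and chr18:28058863-28060168 in CDH2 and chr5:31364638-31365893 above CDH6, and 4 of the 7 were at CDH2. The region on the WT side was chr18:27996667-27996943 in CDH2.

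For G444E against WT, 5 of 47 cadherin regions (10.6%) were called in G444E only, against 8.72% of all regions, and 4 (8.51%) in WT only, against 6.27%. The G444E side was led by chr18:27967869-27968442 in CDH2, chr16:82645379-82646119 in CDH13 and chr16:68741672-68742150 in CDH1. The WT side was led by chr16:82753654-82755190 and chr16:82672568-82673028 in CDH13 and chr18:28114546-28115576 in CDH2. Without WT replicate 2, the library with the shortest list, the count on the WT side was 13. Both mutants' shares were near those of the series, in either direction.

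With the tag, 4 of 57 cadherin regions (7.02%) were called in A442M-FLAG only against WT-FLAG, against 7.15% of all regions, and 1 (1.75%) in WT-FLAG only, against 1.89%. The A442M-FLAG side was led by chr5:31367014-31367407 above CDH6, chr18:28142572-28143142 in CDH2 and the single CDH11 region. For G444E-FLAG against WT-FLAG, 0 of 50 cadherin regions were called in G444E-FLAG only, against 0.659% of all regions, and 3 (6%) in WT-FLAG only, against 3.11%. Those 3 were chr5:31311627-31312463 in CDH6 and chr18:28114546-28115576 and chr18:28161607-28162094 in CDH2. The CDH2 region at chr18:28114546-28115576 was also the 1 region in WT-FLAG only against A442M-FLAG, since no FLAG mutant library called it. Untagged A442M called it in both libraries.

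**Figure D4:**
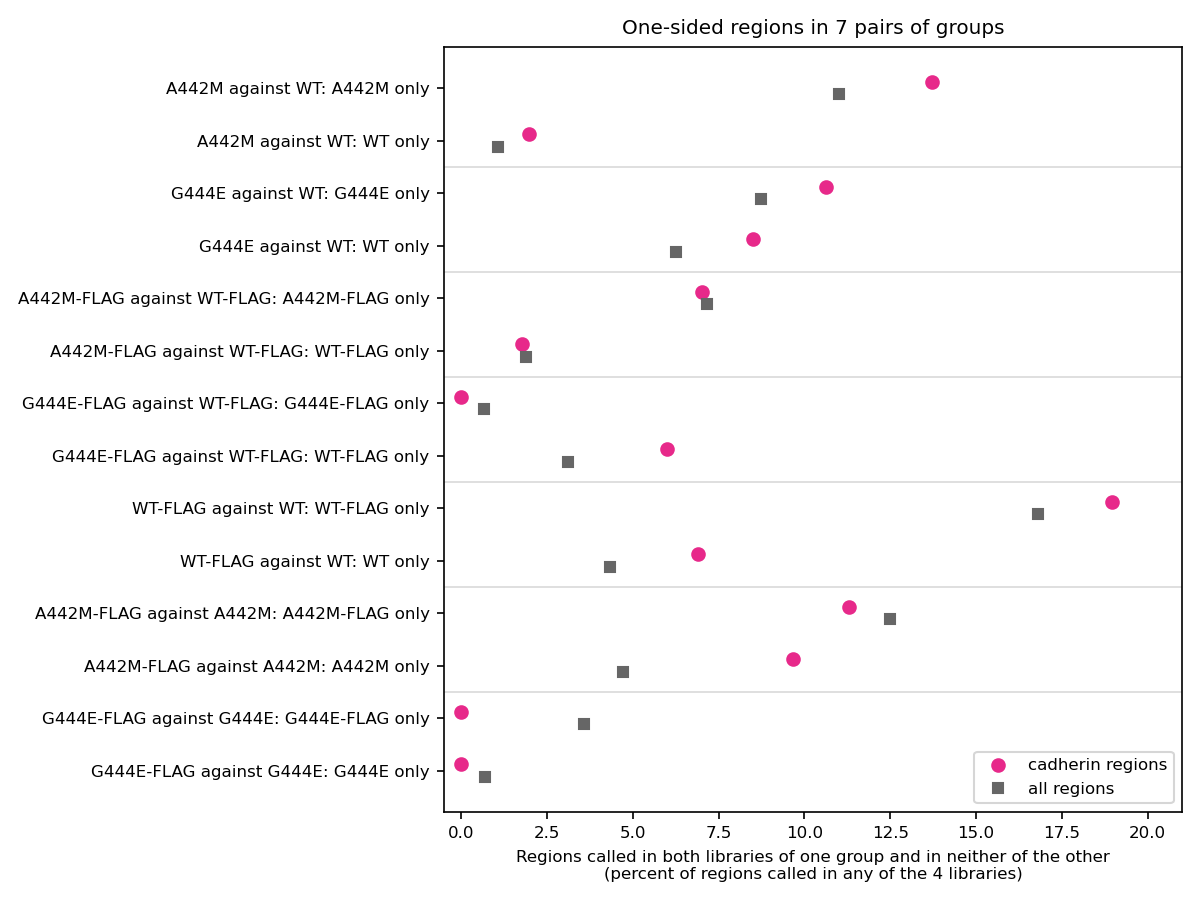
Circles give the percent of cadherin regions, and squares the percent of all regions, that both libraries of a group called and neither of the other did, for 7 pairs and both directions. The horizontal axis is the percent of regions called in any of the 4 libraries of the pair. The circles lie within 5 percentage points of their squares, with the widest gap where A442M stands alone against A442M-FLAG (9.68% and 4.71%).

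The tag was also compared within each genotype. For WT-FLAG against WT, 11 of 58 cadherin regions (19.0%) were called in WT-FLAG only, against 16.8% of all regions, 6 of them at CDH2. On the WT side there were 4 (6.90%), against 4.34% of all regions, and 3 of these 4 were at CDH13. The WT-FLAG side was led by chr18:28075447-28076134 in CDH2, chr16:68739762-68740482 in CDH1 and chr16:82645379-82646119 in CDH13.

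For A442M-FLAG against A442M, 7 of 62 (11.3%) were called in A442M-FLAG only, against 12.5% of all regions, and 6 (9.68%) in A442M only, against 4.71%. Of these 6, 4 were at CDH13 and 2 at CDH2. The A442M-FLAG side was led by chr18:28080852-28081277 in CDH2, chr16:68781819-68782354 in CDH1 and chr5:31367014-31367407 above CDH6. The A442M side was led by chr16:82753654-82755190 and chr16:82653651-82654240 in CDH13 and chr18:27921860-27922280 below CDH2. For G444E-FLAG against G444E, 0 of 43 cadherin regions were called on either side alone, against 3.57% of all regions in G444E-FLAG only and 0.700% in G444E only. The CDH13 regions found on the untagged side in these pairs came from WT and A442M, and whether the tag effect differs between genotypes was not tested.

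Among 11 other type I and type II cadherins, 37 regions were found, 1 of them called in all 12 libraries, with a median of 4.17 per Mb. CDH20 had the most regions, 11, and CDH8 had 0. In the tag comparison of region numbers none of the 10 with a region had an unadjusted p under 0.05. Per 10000 regions, as for CDH13, 3 of the 10 were lower in FLAG libraries at an unadjusted p under 0.05, where 7.48% of all genes were. CDH12 and CDH18 had an exact p of 0.0278 and CDH20 of 0.0185, and their adjusted p-values were 0.203, 0.203 and 0.180. The 12 catenins and junction partners, which tie cadherins to actin or build the same junctions, held 149 regions, 17 of them with a call in every library, with a median of 51.6 per Mb. CTNNA3, an alpha-catenin gene, had the most, 38, and CTNNA2, another, had 0. In the tag comparison 5 of the 11 partners with a region had more regions in FLAG libraries at an unadjusted p under 0.05, where 19.1% of genes did. They were CTNNB1 (beta-catenin), CTNND1 (p120-catenin), VCL (vinculin), AFDN (afadin) and NECTIN2, a nectin, and none passed the adjustment over all genes. With exchange restricted to libraries of 1 replicate number, CTNND1 had an exact permutation p of 0.0625. CTNNB1, VCL, AFDN and NECTIN2 then each had 0.03125. Over all genes, 1818 were higher in FLAG libraries at a p under 0.05 with this restriction, against 3392 without it. Per 10000 regions, 4 of the 11 were higher in FLAG libraries at an unadjusted p under 0.05, where 10.5% of genes were. NECTIN2 then had an exact permutation p of 0.0833. On that scale 1 of the 11, CTNNA3, was lower, at 3.95 ± 0.481 in FLAG and 5.43 ± 1.24 in untagged libraries (SD, n = 6 each). Its exact p was 0.0278 and its adjusted p 0.203.

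CTNNB1 averaged 5.00 ± 1.55 regions in FLAG libraries and 2.50 ± 0.548 in untagged libraries, and VCL 12.3 ± 2.07 and 6.17 ± 2.93 (SD, n = 6 each). Both had an exact p of 0.00926 and an adjusted p of 0.174. In the genotype comparison none of these genes passed the adjustment, and 1 of the 11 partners with a region, VCL, had an unadjusted p under 0.05 with more regions in mutants, where 2.06% of all genes did. VCL averaged 10.4 ± 2.97 regions in mutants (n = 8) and 7 ± 5.35 in wildtype (n = 4), with an exact p of 0.0311 and an adjusted p of 1.

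For the 4 cadherins with at least 8 regions, the gene on another chromosome whose region number ran most alike over the 12 libraries was sought among 5133 to 5183 genes with at least 8 regions. It was TRAM2 for CDH1 (Pearson r = 0.952), HTR2B for CDH2 (0.967), WDR86 for CDH3 (0.958) and PCDH15 for CDH13 (0.951). The libraries share list length as a common factor, each gene is the highest of those compared, and the values are descriptions over the same 12 libraries.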

How the data were processed

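GATA3 ChIP-seq peaks were deposited as 1 list per library for 12 libraries (6 groups of 2), and peaks were therefore called per sample. The submitters' processing notes name MACS2 2.1.4, FastQC and hg38. The aligner, depth, control and filters were not given in the sources used here. A deposited list has 5 columns, and the fifth is a score per peak deposited by the authors, at least 5.00 in every list, on a scale the files do not name. The score was used only to rank peaks within a list.

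Peaks overlapping by 1 bp or more were merged into regions (Python 3.11.15, pandas 2.3.3, numpy 2.4.6, scipy 1.17.1, figures with matplotlib 3.10.9). Gene spans were read from RefSeq's GRCh38.p14 gene table, which lists no strand or exons, and coordinates are 1-based. A region's percentile in a library is the rank, within that list, of its highest-scoring peak. Calls per region were tested by Fisher's exact test and region numbers per gene by exact stratified permutation, both fitted on the whole series, and both procedures were tested on simulated data. The members and gene lists were chosen with earlier results of these data known. Printed regions were those called in all 12 libraries, any past the adjusted threshold, and up to 3 per direction and pair of groups, ranked by the lower percentile of both libraries. Regions printed outside this rule are named as chosen after their values were seen, or are those with an unadjusted p under 0.05. For the catenins and other cadherins, the genes with the most and the fewest regions were named, and those with an unadjusted p under 0.05 in addition.

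Labels number replicates 1 and 2 without saying what a number shares. Over 15 pairs of groups, the difference between replicates 1 and 2 correlated across regions between 0.113 and 0.290. The numbers were therefore taken, from the data, to pair the samples. Calls per region and region numbers per gene were also tested with exchange restricted to libraries of 1 number. Numbers per 10000 regions were not tested with this restriction. Replicate 1 had the longer list in every group, and the part of list length in these correlations was not tested. The smallest p that 2 against 2 libraries can give is 0.333, so pairs of groups were not tested. Alternatives were a merge at 100 bp, a score of at least 10, lists cut to the length of the shortest, a 10 kb flank, numbers per 10000 regions, stratified permutation of calls and leaving out each library.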

Additional observations from a re-analysis of the deposited data

Results flagged for a closer look

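At the CDH3 window the difference between G444E and wildtype had opposite directions in the 2 tag states. G444E libraries had 7 and 7 regions and WT libraries 5 and 3, a mean difference of 3, while G444E-FLAG libraries had 7 and 7 and WT-FLAG libraries 9 and 8, a mean difference of -1.5. Both G444E libraries were above both WT libraries, and both G444E-FLAG libraries were below both WT-FLAG libraries. Per 10000 regions the tagged groups averaged 2.08 in G444E-FLAG and 2.17 in WT-FLAG. For A442M the mean number of regions was above wildtype in both tag states. It was 5 in A442M and 4 in WT, and 9 in A442M-FLAG and 8.5 in WT-FLAG. Per 10000 regions the A442M mean was below wildtype in both tag states. It was then 1.359 in A442M and 1.504 in WT, and 1.961 in A442M-FLAG and 2.168 in WT-FLAG. The A442M direction therefore depends on this scaling. Of the 12 regions in the CDH3 window, 8 lie above the CDH3 span, inside CDH1. Over the 4 in the CDH3 span, G444E-FLAG and WT-FLAG libraries of the same replicate number had equal numbers of calls. The tagged difference therefore came from regions inside CDH1. The CDH1 window changed direction too, with 10 and 10 in G444E and 8 and 5 in WT. With the tag it had 10 and 8 in G444E-FLAG and 12 and 10 in WT-FLAG. The difference between the tag states was not tested for either window.

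Single libraries stood far from the others of their group in 4 of 28 groups checked, where chance alone flags about 1 in 20. The groups share libraries, 2 of the 4 flags are CDH4 in WT replicate 1, and many counts are small and tied. The 4 are therefore not independent, and no excess over that rate is shown. For CDH4, WT replicate 1 had 2 regions and every other library 0, which stands out among the 6 untagged libraries (2) and among the 4 wildtype libraries (2). For CDH5, WT replicate 1 had 2 regions and the other 5 untagged libraries 1 each. For CDH13, A442M replicate 1 had 12 regions and the next highest of the 8 mutant libraries 6.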

How the results depend on the processing

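No cadherin region and no cadherin gene passed an adjusted 0.05 in any of the alternatives, stratified permutation of the calls included, and the lowest adjusted p over 284 gene alternatives was 0.111 (CDH2, tag comparison, without G444E-FLAG replicate 2). With the replicate numbers as a block, 0 regions and 0 genes passed in either comparison. CDH2 in the tag comparison then had an exact permutation p of 0.03125 and an adjusted p of 0.251. That p is the smallest the 64 arrangements can give, and it passes the adjustment only if most genes tested share it. The blocked tag test of genes could therefore hardly pass, and its 0 is no check on the main test. The main tests of genes have a like limit, since many genes must share a small p for any to pass. With lists cut to the shortest, the 74 regions became 48, and tag differences moved from 5.50 to 2.50 for CDH2, -3.33 to -1.83 for CDH13, 2.83 to 0.333 for CDH3 and 1.17 to 0 for CDH6. With a score of at least 10 CDH13 was -1.5, and with a 10 kb flank CDH6 was 0.167. Without A442M replicate 1 CDH13 was -2.33.

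Signs changed in few places. The CDH1 tag difference was -0.167 with equal lists and -0.0922 per 10000 regions. In the genotype comparison CDH5 was 0.25 at a score of at least 10 and 0.125 with a 10 kb flank, CDH3 was -0.125 with equal lists, and CDH2 was -0.102 per 10000 regions. Leaving out 1 library gave -0.375 to 0.125 for CDH5 (positive without WT-FLAG replicate 1 or WT replicate 1) and -2.12 to 0.375 for CDH13 (positive without WT replicate 1).

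The counts called on one side of a pair moved with the settings. At a score of at least 10 they were 4 for A442M and 0 for WT, 3 for G444E and 2 for WT, 1 for A442M-FLAG and 0 for WT-FLAG, 1 for WT-FLAG against G444E-FLAG, 2 for WT against WT-FLAG, and 1 for G444E-FLAG against G444E. With equal lists they were 2 for A442M against WT, 2 for A442M-FLAG and 3 for WT-FLAG, 0 for WT-FLAG against G444E-FLAG, 6 for WT-FLAG against WT, 4 for A442M-FLAG against A442M, and 1 for G444E-FLAG against G444E. Leaving out 1 library gave 8 to 12 for A442M and 1 to 7 for WT, the highest without A442M replicate 2 and WT replicate 2, and 5 to 9 for G444E and 4 to 13 for WT, the highest without WT replicate 1 and WT replicate 2. It gave 5 to 10 for A442M-FLAG (highest without its replicate 2) and 2 to 4 for WT-FLAG (without its replicate 1), and 0 to 3 for G444E-FLAG (without its replicate 2) and 4 to 8 for WT-FLAG (without its replicate 1). Within genotypes it gave 12 to 17 for WT-FLAG (without its replicate 1) and 4 to 12 for WT (without its replicate 2), 8 to 14 for A442M-FLAG (without its replicate 2) and 6 to 12 for A442M (without its replicate 2), and 2 to 6 for G444E-FLAG (without its replicate 2) and 0 to 2 for G444E. A count then rests on 3 libraries in place of 4, which eases the condition by construction. The cause of the other moves was not tested.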
